A study of Homo sapiens with 6 samples.

Results

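Interferon-stimulated genes, the genes that cells switch on when interferon reaches its receptors, were followed in PC9 cells that had survived the EGFR inhibitor erlotinib. The set was a list of 46 such genes, and each probe set that the array annotation gave to exactly 1 of them was taken. A total of 44 genes on 78 probe sets were measured, among 19775 genes in all. UBA7, whose probe sets also carry other symbols, and STAT2 were not analysed here. PC9 is a non-small cell lung cancer line with an activating EGFR mutation, and every culture used here also carried a stably integrated GFP vector. RNA from 3 parental cultures (vehicle, DMSO) and from 3 cultures of drug-tolerant persisters (DTPs, left after 9 days in 2 µM erlotinib) was read on 1 array each. By the protocol in the labels, the drug was added at 80% confluency and DTPs were taken on day 10, whereas parental cells were taken on day 3 at 100% confluency. Elsewhere, in the methods and the design text, vehicle and drug were given for equally long. Under the protocol, days in culture and density changed along with the drug, and their parts cannot be told apart.

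Interferons are secreted when sensors in a cell meet foreign or misplaced nucleic acid. Type I interferons bind a receptor made of IFNAR1 and IFNAR2, whose JAK kinases activate STAT proteins, and these join IRF9 on a DNA motif, the interferon-stimulated response element, in front of the target genes. Type II interferon, the product of IFNG, signals through IFNGR1 and IFNGR2 to another motif, the gamma-activated site (GAS). The target genes sense viral RNA, block its translation, modify proteins with the ubiquitin-like ISG15 or hold viruses at membranes, and tumour cells can also express them without infection.

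To show what the genes share in their DNA, the response element core GAAANNGAAA (N is any base) was searched on both strands of RefSeq promoter windows (GRCh38.p14, 250 bases before to 50 after each gene's start). The core was present in 26 of the 36 measured genes that had a window (72.2%) and in 4.38% of all 27305 genes with one, a gene counting where any of its windows held it. Of the genes called higher in DTPs (thresholds are given with the counts), 11 of 15 with a window held the core (73.3%), as did 15 of the 21 that were not called (71.4%). By window, 70.6% of the 17 windows of called genes and 59.4% of the 32 windows of the others held it, so the others had more windows per gene. The difference was not tested. TRIM22, IFIT2, IFITM2, MX2, OASL, IRF7, OAS2 and USP18 had no window in the table. The following stretches hold the first match in the window of the 6 called genes with the largest rise among those with a match, with the core in capitals. A core on the other strand reads TTTC, any 2 bases and TTTC, and in IFIH1 and ISG15 a pair of matches shared a half-site.
IFIH1 (chr2:162318810-162318861, minus strand): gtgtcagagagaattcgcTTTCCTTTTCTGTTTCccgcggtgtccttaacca
ISG15 (chr1:1013366-1013417, plus strand): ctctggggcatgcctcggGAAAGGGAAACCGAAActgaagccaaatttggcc
DDX60 (chr4:168318813-168318858, minus strand): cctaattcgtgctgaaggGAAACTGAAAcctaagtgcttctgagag
EPSTI1 (chr13:42992264-42992309, minus strand): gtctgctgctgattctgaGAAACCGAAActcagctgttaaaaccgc
PARP12 (chr7:140062934-140062979, minus strand): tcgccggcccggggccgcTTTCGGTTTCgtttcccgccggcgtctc
SAMD9 (chr7:93118088-93118133, minus strand): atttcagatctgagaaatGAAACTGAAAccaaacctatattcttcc
The next stretches show the same core in the 6 genes with a match that had the lowest log2 fold changes, none of them called, and in BST2 a pair of matches again shared a half-site.
BST2 (chr19:17405727-17405778, minus strand): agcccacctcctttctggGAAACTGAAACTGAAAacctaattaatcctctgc
IFIT5 (chr10:89414505-89414550, plus strand): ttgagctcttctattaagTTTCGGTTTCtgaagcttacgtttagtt
RSAD2 (chr2:6877614-6877659, plus strand): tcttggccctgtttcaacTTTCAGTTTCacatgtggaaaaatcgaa
ISG20 (chr15:88638929-88638974, plus strand): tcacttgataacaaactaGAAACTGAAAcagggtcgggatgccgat
MX1 (chr21:41420551-41420596, plus strand): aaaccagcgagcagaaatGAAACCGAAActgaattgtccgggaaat
PLSCR1 (chr3:146544659-146544704, minus strand): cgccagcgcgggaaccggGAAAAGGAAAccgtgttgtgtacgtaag
The printed cores began at positions from -159 (IFIH1) to 11 (MX1) relative to the gene's start. The GAS core TTCNNNGAA, which reads the same on both strands, was present in 13 of the 36 genes (36.1%) and in 9.38% of all genes with a window, and in 5 of the 36 it overlapped a response element match. These letters describe the windows and do not show that a protein was bound there.

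The array values were log2 summaries of each probe set. They carry no detection call, so a gene with little or no transcript still has a value, and folds of dim genes understate the change. For each gene the brightest probe set over all 6 arrays was read, leaving aside those with the suffix _x_at, which can bind other transcripts, where another existed. The groups were compared with limma, and calls required an adjusted p below 0.05 together with a fold above 1.5. A gene was described as bright where a group mean lay above 7.29, the median of all probe sets, and as dim otherwise. The nearest gene above that line was OASL, with a mean of 7.37 in DTPs, and the nearest below it was SAMD9L, with 7.26. The labels do not say whether the cultures of a group were started separately, so the tests take in the spread among these 6 samples and no more. In bulk RNA a larger share of cells that express a gene and more of its RNA per cell cannot be told apart, nor can selective survival of some cells and a shift inside all of them.

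Interferon-stimulated genes were called higher in DTPs in many members and called lower in none. Of the 44 genes, 18 were called higher, 0 lower and 26 neither, where 8.08% of all genes were called higher and 6.13% lower. The median log2 fold change was 0.52, with a range of -0.37 to 2.03, and the median over all genes was -0.05. In 32 genes every DTP array lay above every parental array, and in 4 genes below, against 23.9% and 29.8% of all genes. At the adjusted p alone, with no fold minimum, 31 genes were higher and 3 lower (20.4% and 24% of all genes). Relative to its mean in parental cells a gene stood on average 0.49, 0.61 and 0.57 higher in DTP replicates 1 to 3, and between -0.02 and 0.03 in the parental arrays. No DTP array stood apart from the others in this mean.

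Bright and dim genes both took part. Among the 25 bright genes 12 were called higher (48%, beside 11.3% of all 13112 bright genes), and among the 19 dim genes 6 were (31.6%, beside 1.76% of all 6663 dim genes). Of the called genes, EPSTI1, HERC6 and IFI6 were bright only through the DTP group, in which they were high. The same held for OASL and OAS3, which were not called. A rise by itself can make a gene bright, in members and in all genes alike, so these shares describe the split and support nothing further. The dim genes called were TRIM22, IFIH1, DDX60, SAMD9, IFIT1 and IFI44. Another scaling of the arrays raised the counts. When each array was centred on its ribosomal protein genes or on its spike-in controls, the median of all genes moved from -0.05 to 0.08 and 0.13, and 24 members were higher and 0 lower under either. Over all genes the calls, 1597 higher and 1212 lower, became 2161 and 841 with the former and 2437 and 730 with the latter. The 25 ribosomal protein genes were themselves lower in DTPs as deposited, at a median log2 fold change of -0.12. In 22 of them every DTP array lay below every parental array, beside 29.8% of all genes. Either centring shifts the log2 fold change of every gene by the same amount, so the raised counts are no separate support. With probe sets below the median over all 6 arrays left out, 21 members were tested and 9 were higher, beside 11% of all genes.

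**Figure D1:**
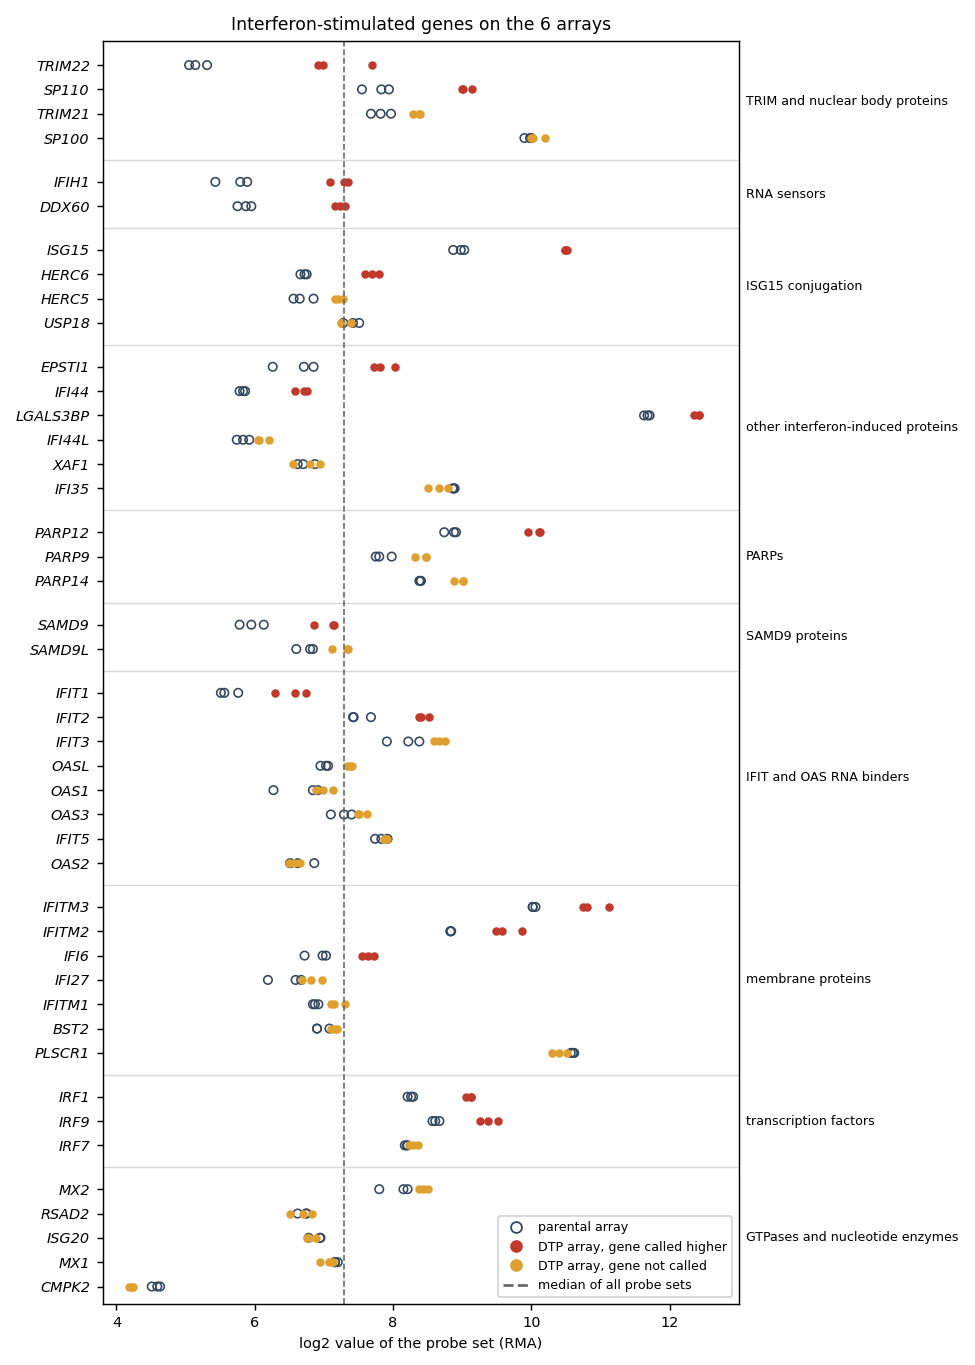
Log2 value (x axis) of each of the 44 genes (rows, grouped by role) on the 6 arrays, with open circles for the 3 parental arrays and filled circles for the 3 DTP arrays, red where the gene was called higher. The red groups of the 18 called genes lie wholly to the right of their parental circles, while MX1, OAS2, RSAD2, USP18 and XAF1 lie on or beside theirs.

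**Figure D2:**
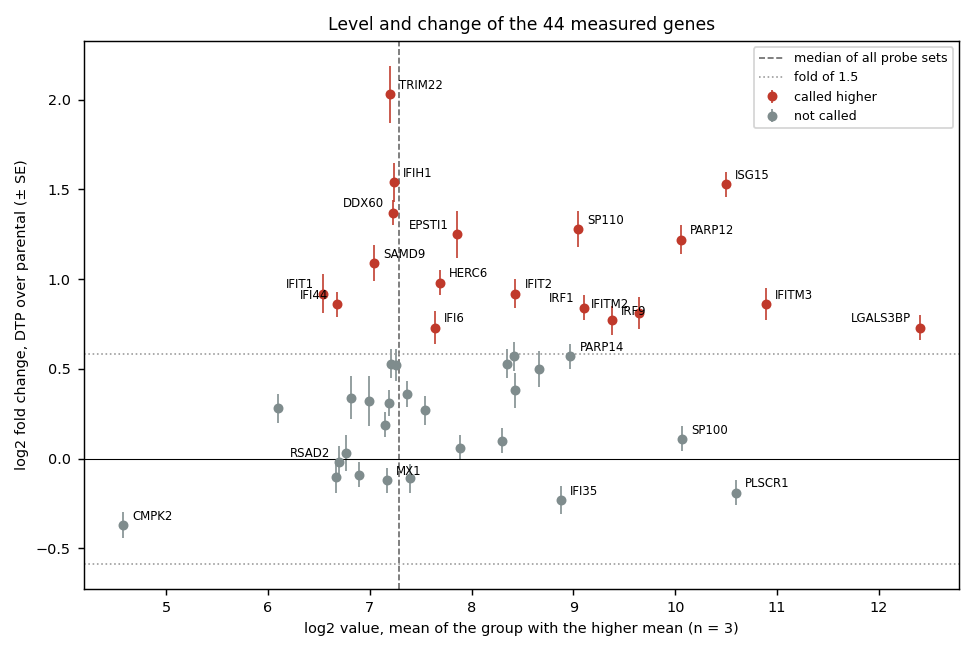
Log2 fold change (DTP over parental) with its SE (y axis) against the mean log2 value of the group with the higher mean (x axis, n = 3) for the 44 genes. Called genes lie on both sides of the median of all probe sets, IFIT1 and TRIM22 to its left and ISG15 and PARP12 to its right.

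Both RNA sensors rose, and both were dim. IFIH1, the sensor MDA5 that detects viral RNA in the cytosol, read 5.79, 5.43 and 5.89 in parental replicates 1 to 3 and 7.09, 7.29 and 7.35 in DTP replicates 1 to 3. The groups were more than a log2 unit apart, and IFIH1 rose 2.90-fold (log2 fold change 1.54 ± 0.11 SE, limma adjusted p = 1.8e-07). DDX60, a helicase that assists such sensors, read 5.87, 5.95 and 5.75 in parental cells and 7.16, 7.30 and 7.23 in DTPs. The arrays of each group lay close together, and DDX60 rose 2.59-fold (1.37 ± 0.07, limma adjusted p = 1.2e-08).

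Of the 3 transcription factors measured, 2 rose. IRF1, an activator that is itself induced by interferon gamma, read 8.26, 8.29 and 8.21 in parental cells and 9.05, 9.12 and 9.12 in DTPs. The groups were clearly apart, with a 1.79-fold rise (0.84 ± 0.07, limma adjusted p = 3.7e-07). For the second probe set of IRF1, also bright, the log2 fold change was 0.50 (limma adjusted p = 0.0003), short of the fold minimum. IRF9, the DNA-binding partner of the STAT proteins, read 8.61, 8.67 and 8.57 in parental cells and 9.37, 9.52 and 9.26 in DTPs, a 1.70-fold rise (0.77 ± 0.08, limma adjusted p = 4.2e-06). Every DTP value of IRF9 exceeded the parental ones by more than the spread within either group. IRF7, which amplifies interferon production, read 8.17, 8.20 and 8.21 against 8.23, 8.36 and 8.29. Its groups did not overlap, but the difference of 0.10 ± 0.07 did not pass the test (limma adjusted p = 0.24).

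In the ISG15 system the modifier rose and its protease did not pass the test. ISG15, the ubiquitin-like protein that is joined to other proteins or secreted, read 9.03, 8.98 and 8.87 in parental cells and 10.48, 10.49 and 10.52 in DTPs. It had the smallest adjusted p of the 44 genes and rose 2.90-fold (1.53 ± 0.07, limma adjusted p = 1.9e-09). HERC6, a ligase related to the ISG15 ligase HERC5, read 6.66, 6.72 and 6.75 in parental cells and 7.59, 7.69 and 7.80 in DTPs, a 1.98-fold rise (0.98 ± 0.07, limma adjusted p = 2.4e-07). The gap between its groups was far wider than either group. HERC5 itself, the main human ligase for ISG15, had a log2 fold change of 0.53 (limma adjusted p = 0.00017), a fold of 1.44 that missed the fold minimum. USP18, which removes ISG15 and damps signalling at the interferon receptor, read 7.51, 7.42 and 7.28 in parental cells and 7.25, 7.24 and 7.39 in DTPs. Its groups overlapped (-0.11 ± 0.08, limma adjusted p = 0.27), and its sign turned under both centrings.

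The IFIT proteins, which bind foreign RNA and block its translation, were called in part. The oligoadenylate synthetases (OAS), most of which make the messenger that activates an RNA-degrading enzyme, were not called by their brightest probe sets. Of the 8 IFIT and OAS genes 2 were called. IFIT1 read 5.76, 5.51 and 5.56 in parental cells and 6.29, 6.74 and 6.58 in DTPs, a 1.90-fold rise (0.92 ± 0.11, limma adjusted p = 1.4e-05) of a dim gene. IFIT2 read 7.43, 7.68 and 7.42 in parental cells and 8.40, 8.52 and 8.37 in DTPs, a 1.89-fold rise (0.92 ± 0.08, limma adjusted p = 1.6e-06). In both, all DTP arrays lay above all parental arrays. IFIT3 had 0.50 and IFIT5 0.06, and their groups were apart for IFIT3 and overlapped for IFIT5. The other probe set of IFIT5 had 0.46 (limma adjusted p = 0.0021), short of the fold minimum. The log2 fold changes were 0.36 for OASL, 0.32 for OAS1 (limma adjusted p = 0.081), 0.27 for OAS3 and -0.10 for OAS2, whose sign turned under both centrings. A dimmer probe set of OAS2 had -0.48 (limma adjusted p = 0.003), a fold of 1.40 with its groups apart, and the mean over its 3 probe sets was -0.20.

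None of the 5 GTPases and nucleotide enzymes was called. MX1, a GTPase that traps viral nucleocapsids and is among the genes most often used to report interferon signalling, read 7.16, 7.16 and 7.20 in parental cells and 6.94, 7.13 and 7.08 in DTPs. All DTP values were slightly below the parental ones, and the difference did not pass the test (-0.12 ± 0.07, limma adjusted p = 0.18) and turned positive with centring on spike-ins. MX2, its relative that restricts HIV, had a log2 fold change of 0.38 (limma adjusted p = 0.0075) at a fold of 1.30. RSAD2, or viperin, which makes an inhibitor of viral RNA synthesis, read 6.75, 6.62 and 6.74 against 6.70, 6.51 and 6.83, with overlapping groups (-0.02 ± 0.09). ISG20, an RNA exonuclease, had -0.09, and both signs turned under both centrings. The other probe set of ISG20 had -0.26 (limma adjusted p = 0.029), short of the fold minimum. CMPK2, a nucleotide kinase that lies next to RSAD2 in the genome, read between 4.18 and 4.63 on all arrays. It was lower in DTPs at a fold of 1.29 (-0.37 ± 0.07, limma adjusted p = 0.00062) without reaching the fold minimum. Centred on ribosomal protein genes and on spike-ins CMPK2 had -0.24 and -0.19 (limma adjusted p = 0.0093 and 0.29).

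Among 7 membrane proteins 3 rose. IFITM3, which blocks viral entry at endosomes, read 10.02, 10.02 and 10.06 in parental cells and 10.75, 11.12 and 10.80 in DTPs, a 1.82-fold rise (0.86 ± 0.09, limma adjusted p = 6.7e-06). IFITM2, its close relative, read 8.84, 8.83 and 8.83 in parental cells and 9.49, 9.87 and 9.58 in DTPs, a 1.76-fold rise (0.81 ± 0.09, limma adjusted p = 1e-05). DTP replicate 2 was the highest array for both, and both were read by probe sets that can bind other transcripts, so the paralogs may share signal. IFITM1, read by another kind of probe set, had 0.31 (limma adjusted p = 0.0041). IFI6, a small membrane protein that restrains flavivirus replication, read 7.03, 6.98 and 6.72 in parental cells and 7.64, 7.73 and 7.55 in DTPs, a 1.65-fold rise (0.73 ± 0.09, limma adjusted p = 2.1e-05). Its groups were apart by more than their width. IFI27 had 0.34 and BST2, or tetherin, which holds budding viruses at the cell surface, 0.19 (limma adjusted p = 0.048). PLSCR1, a scramblase that was bright in all cultures, read 10.60, 10.57 and 10.62 against 10.30, 10.40 and 10.51. It was lower in every DTP array (-0.19 ± 0.07, limma adjusted p = 0.047) by a fold of 1.14. Centred on ribosomal protein genes and on spike-ins PLSCR1 had -0.07 and -0.01 (limma adjusted p = 0.49 and 0.95).

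By the probe set read for each gene the largest rise was that of TRIM22, a ubiquitin ligase that limits several viruses, which read 5.31, 5.05 and 5.14 in parental cells and 6.91, 7.70 and 6.98 in DTPs. DTP replicate 2 stood above the other DTP arrays, all 3 lay well above the parental arrays, and TRIM22 rose 4.08-fold (2.03 ± 0.16, limma adjusted p = 5.3e-07). SP110, a nuclear body protein of the SP100 family, read 7.94, 7.83 and 7.55 in parental cells and 9.01, 9.00 and 9.14 in DTPs, a 2.42-fold rise (1.28 ± 0.10, limma adjusted p = 2.5e-07), with 0.78 for its brightest, _x_at, probe set. All its DTP arrays lay more than a log2 unit above the highest parental array. TRIM21, the cytosolic antibody receptor, had 0.53 (limma adjusted p = 0.00016) at a fold of 1.44, and SP100, the nuclear body scaffold, 0.11 with overlapping groups.

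PARP12, an ADP-ribosyltransferase that acts against several RNA viruses, rose, and its relatives PARP9 and PARP14 stopped just short of the fold minimum. PARP12 read 8.91, 8.88 and 8.74 in parental cells and 9.95, 10.12 and 10.11 in DTPs, a 2.33-fold rise (1.22 ± 0.08, limma adjusted p = 4.4e-08). Its DTP arrays were all over a log2 unit above its parental arrays. PARP9 and PARP14, which are neighbours in the genome, each had a log2 fold change of 0.57, a fold of 1.49, with limma adjusted p = 7.7e-05 and 1.5e-05. Their second probe sets had -0.06 and -0.05, and the mean over probe sets was 0.26 for each.

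SAMD9, a restriction factor against poxviruses, read 6.13, 5.95 and 5.78 in parental cells and 6.85, 7.13 and 7.15 in DTPs, a 2.13-fold rise (1.09 ± 0.10, limma adjusted p = 2.2e-06). Its groups did not overlap and both were dim. Its neighbour SAMD9L had 0.52 (limma adjusted p = 0.00035).

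Of the 6 remaining genes 3 rose. EPSTI1, a stromal-interaction gene induced by interferon, read 6.85, 6.26 and 6.71 in parental cells and 7.73, 7.81 and 8.03 in DTPs, a 2.38-fold rise (1.25 ± 0.13, limma adjusted p = 5.3e-06). The parental spread was wide, with replicate 2 lowest, and still below every DTP array. LGALS3BP, a secreted glycoprotein that binds galectins, read 11.68, 11.63 and 11.71 in parental cells and 12.35, 12.43 and 12.42 in DTPs, a 1.66-fold rise (0.73 ± 0.07, limma adjusted p = 1.3e-06). IFI44 read 5.86, 5.78 and 5.83 in parental cells and 6.58, 6.76 and 6.71 in DTPs, a 1.81-fold rise (0.86 ± 0.07, limma adjusted p = 6.7e-07). In both, the gap between the groups was wider than either group. IFI44L, the neighbour of IFI44, had 0.28 (limma adjusted p = 0.0096), and XAF1, which promotes apoptosis, 0.03 with overlapping groups. IFI35 was lower in every DTP array (-0.23, limma adjusted p = 0.03). Centred on ribosomal protein genes and on spike-ins IFI35 had -0.10 and -0.05 (limma adjusted p = 0.3 and 0.81). All of these changes were below the fold minimum.

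Genes that lie side by side did not always go together. In the IFIT cluster IFIT1 and IFIT2 were called, and IFIT3 and IFIT5 were not, by the brightest probe set of each. Of the IFITM cluster IFITM2 and IFITM3 were called and IFITM1 was not, and each of the neighbouring pairs IFI44 and IFI44L, HERC6 and HERC5, and SAMD9 and SAMD9L held 1 called gene. No gene was called in the OAS cluster, in MX1 and MX2, in RSAD2 and CMPK2 or in PARP9 and PARP14. A call against none is a statement on thresholds, and differences between neighbours were not tested.

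The probe sets of a gene often read different changes. Of the 44 genes, 22 had more than 1 probe set. In 2 of these 22 all probe sets were called higher, in 9 some were and others not, and in 11 none was called. Over all 78 probe sets 27 were called higher and 0 lower, beside 7.56% and 4.93% of all probe sets on the array, and 62 had a positive sign. Counting a gene as called where any of its probe sets was, an alternative chosen after seeing the data, gave 21 of 44 genes higher and 0 lower, where 11.4% of all genes had a probe set called higher. The added genes were IFIT3, OAS1 and SP100.

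In several of these genes the brightest probe set showed the smaller change. The other probe set of IFIT2 read 6.10, 5.93 and 5.74 in parental cells and 8.32, 8.90 and 8.27 in DTPs. There all DTP arrays lay over 2 log2 units higher, a 5.96-fold rise (2.57 ± 0.15, limma adjusted p = 1e-07). The other probe set of IFIT3 read 5.87, 6.11 and 6.29 against 7.64, 7.76 and 7.95, a 3.23-fold rise (1.69 ± 0.11, limma adjusted p = 2.9e-07). IFIT3 was thus called by 1 probe set and not by the brighter one.

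The other probe set of SAMD9 read 4.45, 4.52 and 4.53 in parental cells and 6.78, 7.10 and 6.87 in DTPs, a 5.34-fold rise (2.42 ± 0.09, limma adjusted p = 2.3e-09) from a dim level. That of OAS1 read 6.24, 6.05 and 6.00 against 6.86, 7.15 and 6.92, a 1.84-fold rise (0.88 ± 0.09, limma adjusted p = 1.6e-05), and its groups did not overlap, unlike those of the brighter one. SP100 had 6 probe sets, of which 2 were called, with log2 fold changes of 0.86 and 1.16, and the other 4 had 0.04 to 0.27. In the opposite direction, the second probe sets of HERC6 and IFI44 each had a log2 fold change of 0.03, and with the mean over probe sets, 0.51 and 0.44, neither gene was called. Of the 5 probe sets of SP110, 3 were called, and with the mean its log2 fold change was 0.61 against 1.28 for the probe set read. The brightest of the 5, an _x_at probe set, had 0.78 and was called as well. IFIH1 had 2 of 3 probe sets called and a mean of 0.89, and EPSTI1 1 of 2 and a mean of 0.80. Which probe set follows the functional transcript was not tested.

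**Figure D3:**
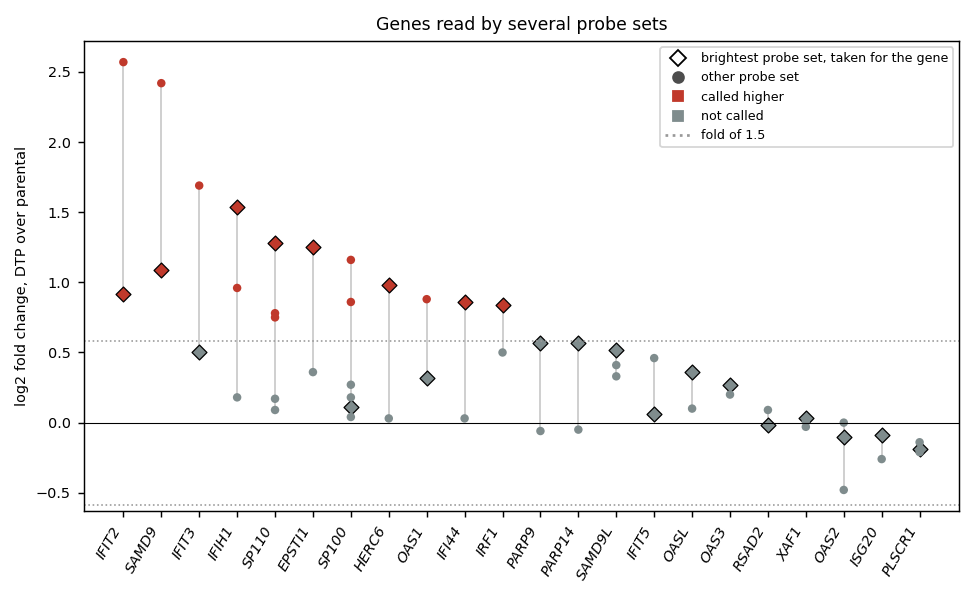
Log2 fold change of DTP over parental (y axis) for every probe set of the 22 genes that have several (x axis). Diamonds mark the probe set read for the gene, the brightest when _x_at is avoided where another existed. Red marks probe sets called higher, and dotted lines lie at a fold of 1.5. The points of IFIT2, SAMD9 and IFIT3 spread over more than a log2 unit, while those of XAF1 and RSAD2 lie near 0.

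The other genes of the pathway, taken from lists of ligands, receptors, kinases, inhibitors, sensors and further inducible genes, were read in the same fit. Of 66 listed, 59 were measured, and 10 were called higher, 1 lower and 48 neither, at a median of 0.04 on the log2 scale. That is 16.9% higher, beside 8.08% of all genes, and 1 gene lower, beside 6.13%. No interferon gene was called among the 18 measured, and 17 of them were dim. As deposited, 1 of the 18 had a positive sign, beside 8140 of all 19775 genes. That 1 became 10 and 12 when the arrays were centred on ribosomal protein genes and on spike-ins. In 6 of the 18 every DTP array lay below every parental array, beside 29.8% of all genes. At the adjusted p alone 4 were lower (1 and 0 under these centrings), beside 24% of all genes. The 4 were IFNA4, IFNA10, IFNA14 and IFNA16, with the largest difference in IFNA4 (-0.36, limma adjusted p = 0.00075). All 4 were read by _x_at probe sets, which can bind other transcripts, so these paralogs may share signal. IFNB1, one of the first interferons that infected cells make, read 5.85, 5.86 and 5.88 in parental cells and 5.98, 5.58 and 5.67 in DTPs. The groups overlapped (-0.12 ± 0.09, limma adjusted p = 0.34). IFNG read between 5.02 and 5.43 on all arrays. Secreted interferon was not measured.

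Of the receptor chains IFNAR2 and IFNGR1 rose. IFNAR2, the chain of the type I receptor that binds interferon tightly, read 7.17, 7.07 and 7.37 in parental cells and 8.35, 8.33 and 8.31 in DTPs, a 2.18-fold rise (1.13 ± 0.08, limma adjusted p = 1.6e-07). With the mean over its 3 probe sets it had 0.53 and was not called, nor was it called when the brightest of all its probe sets, _x_at included, was read. IFNAR1 read 8.41, 8.51 and 8.35 against 9.00, 8.89 and 8.99, all DTP arrays higher by less than the fold minimum (0.54 ± 0.07, limma adjusted p = 4.4e-05). IFNGR1, the ligand-binding chain of the interferon gamma receptor, read 11.43, 11.30 and 11.41 against 12.29, 12.28 and 12.26, a 1.86-fold rise (0.90 ± 0.07, limma adjusted p = 2.5e-07). IFNGR2, its partner, read 11.60, 11.53 and 11.57 against 11.15, 11.12 and 11.12, lower in every DTP array (-0.44 ± 0.06, limma adjusted p = 0.0001) by a fold of 1.35 and not called. The kinases had log2 fold changes of 0.41 for JAK1, 0.35 for TYK2 and 0.21 for JAK2.

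Sensors and adaptors contributed 4 of the called genes. STING1, the adaptor that relays cytosolic DNA sensing, read 8.56, 8.39 and 8.32 in parental cells and 9.93, 9.72 and 9.77 in DTPs, a 2.61-fold rise (1.38 ± 0.08, limma adjusted p = 3.3e-08), and both its probe sets gave 1.36 in the mean. TLR3, the endosomal RNA receptor, rose 2.44-fold (1.29 ± 0.10), the cytosolic RNA sensor RIGI 2.00-fold (1.00 ± 0.07) and the adaptor TRAF3 1.54-fold (0.62 ± 0.07), each with its groups apart. TRAF3 was not called without DTP replicate 3, with a count of 9 pathway genes higher there, or with the mean over its probe sets (0.39). CGAS, the DNA sensor upstream of STING1, had 0.13, MAVS 0.19 and TBK1 0.01.

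Of the inhibitors, PIAS1, which restrains STAT proteins, rose 2.09-fold (1.06 ± 0.08). PTPN2, a phosphatase that removes phosphate from JAK and STAT proteins, read 10.98, 10.93 and 11.07 in parental cells and 10.12, 10.14 and 10.27 in DTPs. It fell in every DTP array, by a fold of 1.76 (-0.81 ± 0.07, limma adjusted p = 1.2e-06), and with the mean over its 7 probe sets it had -0.27 and was not called. SOCS1 had 0.04, SOCS3 -0.26 and IRF2 0.55. Among the further inducible genes, ZC3HAV1, an antiviral protein that binds CpG-rich RNA, rose 2.37-fold (1.24 ± 0.09), SAMHD1, which depletes nucleotides, 1.81-fold (0.85 ± 0.10) and CNP 1.62-fold (0.69 ± 0.07). With the mean over probe sets SAMHD1 (0.52) and CNP (0.39) were not called.

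**Figure D4:**
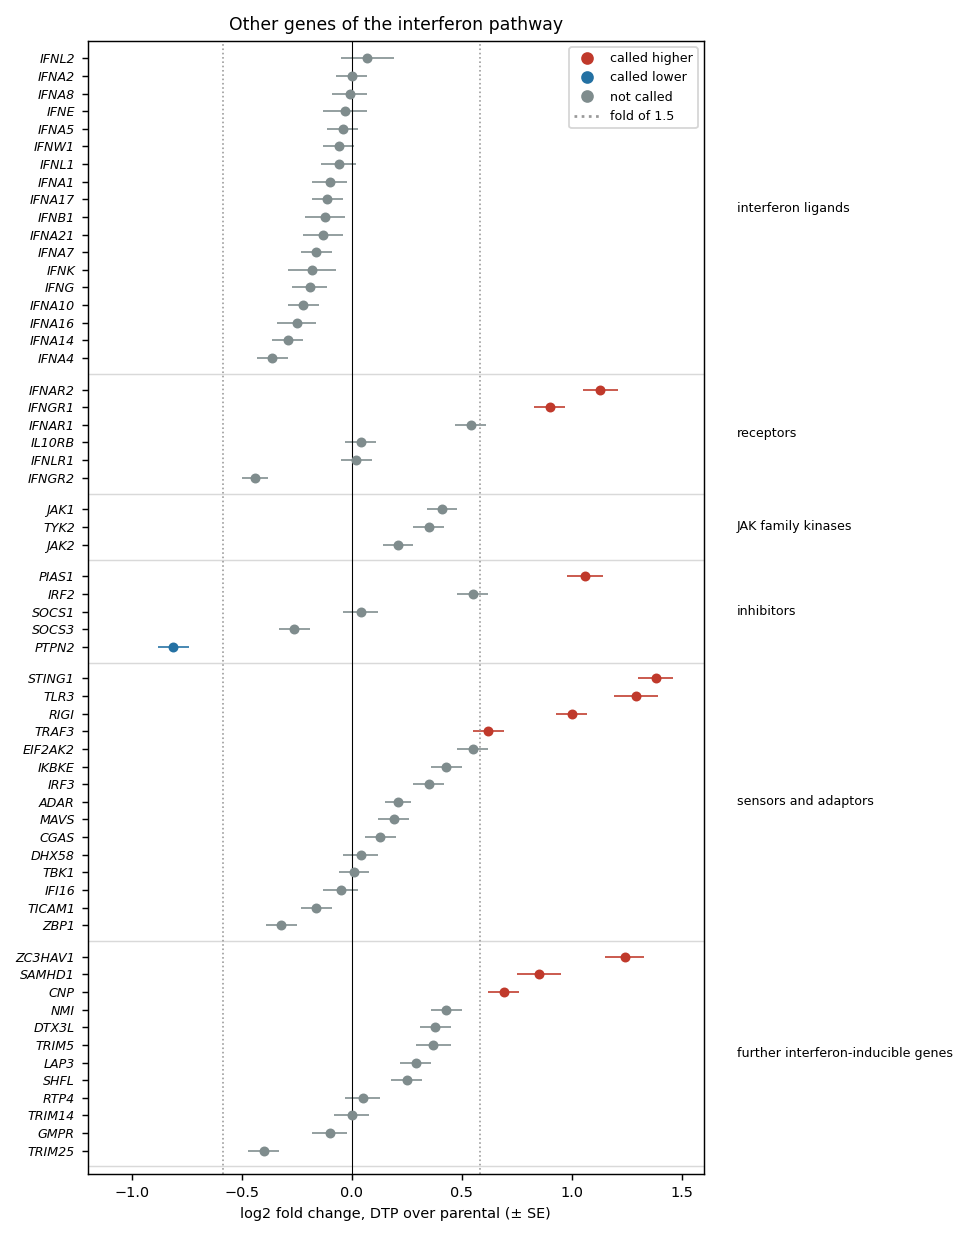
Log2 fold change (DTP over parental) with its SE (x axis) for the 59 other pathway genes measured (rows, grouped by list), with red for genes called higher, blue for lower and dotted lines at a fold of 1.5. The 18 interferon genes lie between -0.36 and 0.07, 1 of them above 0, and STING1 and TLR3 lie farthest to the right.

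The 6 epithelial markers were bright throughout, with a mean over the list of 13.49 to 13.52 in parental arrays and 13.73 to 13.81 in DTP arrays. Of the 6, 4 had a positive sign, and the keratin KRT7 was called higher (0.97). EPCAM (-0.19, limma adjusted p = 0.032) and CDH1 (-0.06, limma adjusted p = 0.49) were lower in every DTP array and not called. Of the 4 lung lineage markers none was called, 3 had a positive sign, and NKX2-1 was dim. SFTPB was lower in every DTP array (-0.46, limma adjusted p = 0.00055) by a fold of 1.38. No leukocyte marker was called among the 10 measured. The leukocyte list averaged 6.41 to 6.47 in parental arrays and 6.42 to 6.55 in DTP arrays, and PTPRC, which marks all leukocytes, read 5.26 to 5.43. Of the 10, 3 were bright, with parental and DTP means of 8.42 and 8.25 for CD3E, 7.07 and 7.62 for CSF1R and 7.20 and 7.36 for ITGAM. CSF1R had a log2 fold change of 0.55 (limma adjusted p = 3.8e-05), CD14 0.34 (0.0026) and CLEC4C -0.22 (0.027), each with its groups apart and below the fold minimum. RNA quality was read from control probes. The 3′ minus 5′ log2 signal of GAPDH lay between -0.17 and -0.13 in parental arrays and between -0.18 and -0.17 in DTP arrays (two-sided exact permutation test, p = 0.30). For β-actin it lay between 0.14 and 0.19 and between 0.03 and 0.09, with p = 0.10, the smallest that 3 against 3 arrays allow (two-sided exact permutation test). Whether this difference has a part in the rises given here was not tested.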

How the data were processed

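The authors deposited log2 values, 1 per probe set, from 6 Affymetrix Human Genome U133 Plus 2.0 arrays. The labels name robust multi-array averaging (RMA) and the affy package, and the methods add quantile normalization, which hides any change in total mRNA. Tool versions and the genome build were not given in the sources.

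Of 54675 probe sets 62 were controls. The other 54613, and separately 19775 genes, were tested two-sided with limma 3.58.1 (R 4.3.3, lmFit and eBayes without covariates) and adjusted by Benjamini-Hochberg. A gene was its brightest probe set, avoiding the suffix _x_at where another existed. Calls followed the methods' thresholds, an adjusted p below 0.05 with a fold above 1.5. The test was checked on simulated data. Array medians lay between 7.27 and 7.32, and precision is limited by having 3 arrays a group.

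The genes and the lists were chosen with earlier results of these data known, so no test was made over a list. By rule, values in every array are given for called members, and every called pathway gene is named, with the IFNAR and IFNGR receptors and IFNB1 whatever their result. Promoter sequences come from RefSeq (GRCh38.p14). Left-out arrays, other scalings, other thresholds, other rules for probe sets, a filter on dim probe sets, a replicate block and the methods' t-test were alternatives.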

Additional observations from a re-analysis of the deposited data

How the results depend on the processing

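No member call was lost in any fit that left out 1 array, where 18 to 20 members, 12 to 16 bright members and 9 to 11 pathway genes were higher and 27 to 29 member probe sets were, with medians of 0.50 to 0.54. Calls gained were PARP9 (log2 fold change 0.64 without parental replicate 1, 0.63 without DTP replicate 1), PARP14 (0.62 without DTP replicate 1), IFIT3 (0.60 without parental replicate 2), HERC5 and TRIM21 (0.61 and 0.60 without parental replicate 3) and SAMD9L (0.60 without DTP replicate 3). Arrays of the same replicate number shared little deviation (correlations of -0.12, 0.02 and -0.06), which with 3 arrays a group cannot settle whether they were paired. With a replicate block 18 members were higher, 0 lower, and no call changed. Nor did any member call change with brightest of all probe sets, an intensity trend with robust variances, cyclic loess or the methods' t-test, but the pathway call of IFNAR2 was lost with the first.

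The counts depended on the fold minimum. With none, 31 members were higher and 3 lower, 19 bright members higher, 25 pathway genes higher and 9 lower, and 45 member probe sets higher and 4 lower. With a fold over 2 these were 8 members higher, 4 bright members, 5 pathway genes higher and 0 lower, and 12 probe sets, beside 3.43% of all genes higher. Without dim probe sets 21 members were tested and 9 were higher, as were 12 probe sets, with 11% of all remaining genes called higher. Fewer genes entered that fit. Centring on ribosomal protein genes gave 19 bright members higher and a median of 0.65, and on spike-ins 20, a median of 0.70 and 16 pathway genes. Both gained PARP9, PARP14, HERC5, TRIM21, SAMD9L and IFIT3. With the mean of all probe sets the median was 0.44 and 0 pathway genes were lower. Either centring moves all log2 fold changes by 1 amount, and the genes gained had 0.50 to 0.57 before it, just short of the fold minimum. Why the references of the centrings differed between the groups was not tested. Dim genes limit what can be read, since RMA gives them no detection call.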
